A study of Homo sapiens with 30 samples.

Results

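The peaks described here are the iCLIP peaks of myc-tagged LARP6 that lay at the 5' ends of mRNAs. A peak was counted as cap-proximal when its centre fell from 20 nt upstream to 50 nt downstream of the annotated 5' end of the canonical transcript of a protein-coding gene, on the same strand. The choice used position alone and no peak score. Of 47384 peaks in the FL, ΔNTR and ΔCTR lists, 683 met it and lay on 456 genes. The FL list held 242 of them, the ΔNTR list 262 and the ΔCTR list 179. Where 3 values are given in a row, they stand in the order FL, ΔNTR, ΔCTR.

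iCLIP (individual-nucleotide resolution UV crosslinking and immunoprecipitation) maps where a protein touches RNA, since reverse transcription of the purified RNA tends to stop at the crosslinked base. The cells were U-87 MG, an established human glioblastoma line, transduced with lentivirus and selected with puromycin. Each line carried a doxycycline-inducible myc-tagged LARP6, either FL (full length) or a deletion, and expression was switched on for 24 h by doxycycline at 60 ng/mL. ΔNTR lacks the disordered region before the La-module, ΔCTR lacks the C-terminal region, ΔLa-module lacks the La motif with its RNA recognition motif, and ΔNTD lacks the NTR and the La-module together. Parental cells without a transgene, also given doxycycline per the labels, were the negative control, and iCLIP with a myc-tag antibody was made in 3 replicates of each of 6 conditions. The deposited peak lists pool the 3 replicates, with the parental peaks already subtracted, so that no spread between replicates could be computed for any value below. The intervals given are 95% intervals for counting error alone.

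The cap is the methylated guanosine added to the first base of mRNAs made in the nucleus, and the initiation factor eIF4E binds it to start translation. The mRNAs of ribosomal proteins and of several translation factors begin with C followed by a run of pyrimidines, the TOP motif, through which their translation is controlled together. LARP1, a relative of LARP6, binds the cap and TOP motif of such mRNAs, whereas LARP6 is best known for binding a stem-loop in the 5'UTR of the type I collagen mRNAs.

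In the whole-transcriptome inputs (paired 150-nt reads, 1 library per line) LARP6 stood at 51.9 to 74.8 CPM (gene counts scaled to a common library size) across the 6 lines. The transgenes were codon-optimised, so these reads do not report on their level. The mesenchymal markers VIM and CD44 were at 7073 to 7986 and 2079 to 2312 CPM, and GFAP, the astrocyte marker, was at or below 0.240 CPM in every line. Input depth was 25 to 28.7 M gene counts.

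The annotated 5' ends of the mRNAs named most often below are printed first, because the sequence that follows the cap is what defines a TOP mRNA. Each line gives the first 30 transcribed bases on GRCh38, written 5' to 3' as DNA, with the unbroken run of C and T that starts at the first base in capitals. Sequences without capitals start with a purine. The first 8 lines are mRNAs with a TOP start. The other lines are 9 of the sites with the highest scores and the collagen and LARP6 mRNAs.
RPLP1, chr15:69452818-69452847, plus strand: CCCCTTTCCTCagctgccgccaaggtgctc
RPLP2, chr11:809967-809996, plus strand: CCTTTTCCTCCCTgtcgccaccgaggtcgc
RPS25, chr11:119018314-119018343, minus strand: CTTTTTgtccgacatcttgacgaggctgcg
RPS16, chr19:39435920-39435949, minus strand: CCTTTTCCggttgcggcgccgcgcggtgag
RPS6, chr9:19380207-19380236, minus strand: CTCTTTTCCgtggcgcctcggaggcgttca
TPT1, chr13:45341154-45341183, minus strand: CTTTTCCgcccgctcccccctccccccgag
RACK1, chr5:181243877-181243906, minus strand: CTCTCTTTCactgcaaggcggcggcaggag
EIF2S3, chrX:24054956-24054985, plus strand: CTCTTTTggcaacatggcgggcggagaagc
PGK1, chrX:78104248-78104277, plus strand: gttccgcattctgcaagcctccggagcgca
CCDC85B, chr11:65890673-65890702, plus strand: Cactgcctgccgcgtgcggagccggagccc
FTH1, chr11:61967605-61967634, minus strand: gccagacgttcttcgccgagagtcgtcggg
LGALS1, chr22:37675636-37675665, plus strand: atctctctcgggtggagtcttctgacagct
PFN1, chr17:4948501-4948530, minus strand: acagcgagcggagccgcggtccggacggca
GAPDH, chr12:6534517-6534546, plus strand: gctctctgctcctcctgttcgacagtcagc
CTSL, chr9:87726119-87726148, plus strand: agaaccgcgacctccgcaaccttgagcggc
CNOT1, chr16:58629797-58629826, minus strand: gtagagaaacaagcggagttaaccgaagag
PKM, chr15:72231161-72231190, minus strand: gcacagcagctgcacgcgccgtggctccgg
COL1A1, chr17:50201602-50201631, minus strand: gcagacgggagtttctcctcggggtcggag
COL1A2, chr7:94394895-94394924, plus strand: agcaccacggcagcaggaggtttcggctaa
LARP6, chr15:70854128-70854157, minus strand: agtcgctgccgaccggctggctgggccttg

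The cap-proximal peaks were a small class of every list and made up a smaller share of the ΔCTR list than of the FL list. They made up 1.69% (Wilson interval 1.49 to 1.91) of the 14334 FL peaks, 1.53% (1.35 to 1.72) of the 17180 ΔNTR peaks and 1.13% (0.975 to 1.30) of the 15870 ΔCTR peaks. The share was lower in ΔCTR than in FL by 0.560 percentage points (Newcombe interval of ΔCTR minus FL, -0.832 to -0.295). The difference between ΔNTR and FL, -0.163 points, had an interval that includes 0 (-0.446 to 0.114). The score deposited with each peak was summed over replicates by the authors and is not scaled to depth. Over the cap-proximal peaks it came to 1831, 1826 and 1151, which is 1.78%, 1.96% and 0.969% of the total score of each list.

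Low scores dominated, as they did elsewhere in the lists. The lowest score in the lists, 3, was held by 118 of the FL cap-proximal peaks (48.8%), 127 of the ΔNTR (48.5%) and 96 of the ΔCTR (53.6%), beside 53.8%, 54.6% and 51.1% of all other peaks. Scores of 10 or more were reached by 34, 30 and 23 peaks. Median widths were 23, 25 and 22 nt, against 22, 23 and 23 nt for the other peaks.

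The centres gathered just inside the transcript. The median distance from the annotated first base was 16 nt in FL, 19.5 nt in ΔNTR and 19 nt in ΔCTR. The stretch from 0 to 9 nt held more centres than any other stretch of 10 nt in all 3 lists, with 62 (25.6%, interval 20.5 to 31.5), 56 (21.4%, 16.8 to 26.7) and 39 (21.8%, 16.4 to 28.4). In the 10 nt upstream of the start there were 17, 23 and 13 centres, and from 11 to 20 nt upstream only 5, 3 and 3. Of the peaks outside the mitochondrial genome, 108 of 237 in FL (45.6%), 106 of 257 in ΔNTR (41.2%) and 68 of 174 in ΔCTR (39.1%) covered the first transcribed base itself. Just inside the downstream edge of the window (46 to 50 nt) lay 15, 20 and 11 centres, and just outside it (51 to 55 nt) 17, 19 and 16, so the distribution continued across the edge. The plot of centres around the annotated 5' ends shows the steep rise at the start and the slow fall into the 5'UTR.

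**Figure D1:**
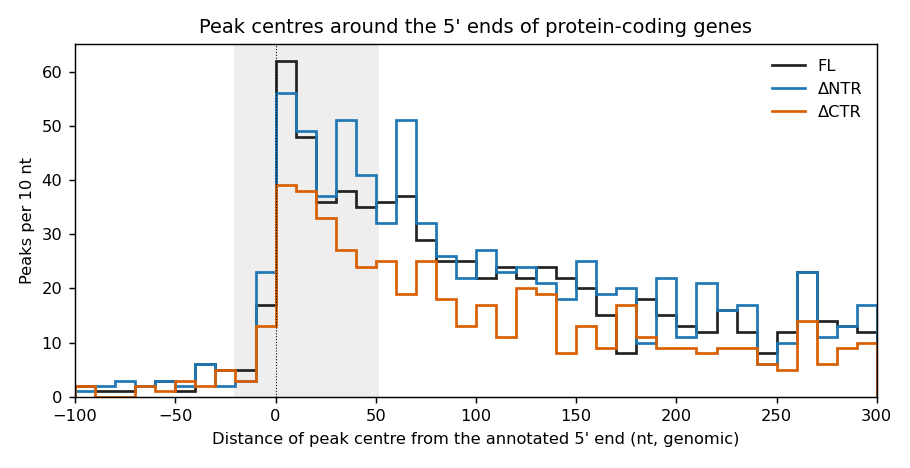
Number of peak centres in bins of 10 nt by genomic distance from the nearest annotated 5' end, for the FL, ΔNTR and ΔCTR lists. The grey band is the window of 20 nt upstream to 50 nt downstream. All 3 lines rise at the start, to 62, 56 and 39 centres in the bin from 0 to 9 nt, and the ΔCTR line runs below the others over most of the range.

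By annotation, 205 FL, 218 ΔNTR and 149 ΔCTR cap-proximal peaks had their centre in the 5'UTR, 15, 18 and 14 in coding sequence behind a short or missing 5'UTR, and 22, 26 and 16 upstream of the canonical start. Of the 64 upstream peaks, 38 lay in an exon of another annotated transcript of the same gene. None of the 683 peaks overlapped an annotated small RNA gene. The rule also took in 15 peaks on 6 genes of the mitochondrial genome, 5 in each list. Mitochondrial mRNAs carry no cap, so these peaks are 5'-terminal but not cap-proximal in the chemical sense, and the sequence results below leave them out.

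Peaks were denser next to the cap than further down the same leaders. Among transcripts with at least 10 CPM and a 5'UTR longer than 51 nt, the first 51 nt held 463 FL peaks per Mb and the rest of the 5'UTR 285, a ratio of 1.62 (exact binomial interval 1.35 to 1.94). In ΔNTR the ratio was 1.45 (1.21 to 1.72) and in ΔCTR it was 1.85 (1.49 to 2.3). All 3 intervals lie above 1. Against the coding sequence of the same transcripts the ratios were 1.63 (1.39 to 1.90) in FL, 1.35 (1.15 to 1.56) in ΔNTR and 1.06 (0.885 to 1.26) in ΔCTR, so that in ΔCTR the first 51 nt could not be told from the coding sequence in peak density.

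Deletion of the CTR was accompanied by fewer peaks along the whole leader. The ratio of ΔCTR to FL peak counts was 0.740 (interval 0.606 to 0.901) for the cap-proximal window, 0.662 (0.565 to 0.774) for 5'UTR peaks outside the window and 0.810 (0.634 to 1.03) for the first 50 nt of coding sequence. All peaks outside the window together went the other way, with 1.11 (1.09 to 1.14) times as many in ΔCTR. The interval for the window overlaps that for the rest of the 5'UTR, so the lower count was not particular to the cap. For ΔNTR the ratio to FL was 1.08 (0.906 to 1.29) at the cap, 1.16 (1.01 to 1.33) in the rest of the 5'UTR and 1.20 (1.17 to 1.23) over all other peaks. Among cap-proximal peaks with a score above 3, ΔCTR had 83 against 124 in FL, a ratio of 0.669 (0.501 to 0.891), and ΔNTR had 135, a ratio of 1.09 (0.847 to 1.4).

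**Figure D2:**
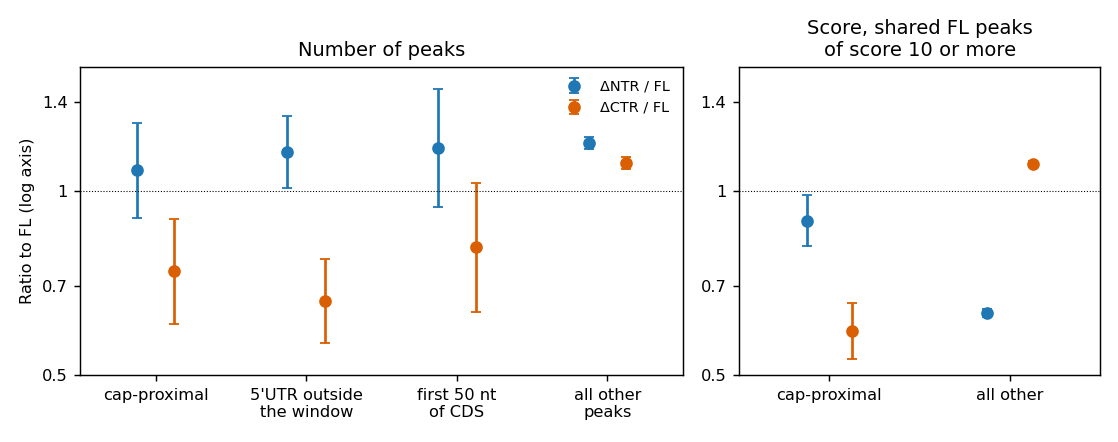
Ratio of ΔNTR (blue) and ΔCTR (orange) to FL on a log axis, with 95% counting intervals. On the left is the number of peaks by region, where ΔCTR lies at 0.740 for cap-proximal peaks and 1.11 for all other peaks. On the right is the summed score of the other list at FL peaks of score 10 or more that both lists share, where ΔCTR lies at 0.592 for cap-proximal and 1.11 for all other peaks, and ΔNTR at 0.896 and 0.632.

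How far the same sites recurred depended on score. A ΔNTR peak overlapped 88 of the 242 FL cap-proximal peaks (36.4%), beside 35.3% of all FL peaks. A ΔCTR peak overlapped 77 (31.8%), beside 37.9% of all FL peaks. The gap opened in the middle of the score range, since ΔCTR peaks overlapped 28.9% of cap-proximal FL peaks with a score of 4 to 9 and 48.1% of the other FL peaks in that class, a difference of -19.2 points (interval -27.6 to -9.0). For FL scores of 10 or more the recurrence was high everywhere, at 82.4% in ΔNTR and 94.1% in ΔCTR for cap-proximal peaks, against 88.3% and 93.2% for other peaks. Merging overlapping members gave 492 sites, of which 64 had a peak in all 3 lists. Those 64 had a median summed score of 27, whereas the 130 sites with an FL peak alone, the 142 with a ΔNTR peak alone and the 73 with a ΔCTR peak alone had a median of 3. Neither deletion list overlapped 53.7% of the FL cap-proximal peaks, beside 51.6% of the other FL peaks. Both overlapped 21.9%, beside 24.9%. The same shares were not computed for ΔNTR and ΔCTR peaks.

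Genes recurred to a similar extent. Of 232 genes with an FL cap-proximal peak, 98 also had one in ΔNTR, which is 42.2% of the FL genes and 39% of the ΔNTR genes. FL and ΔCTR shared 78 genes, 33.6% of the FL genes and 44.8% of the ΔCTR genes. All 3 lists shared 58. The sharing of genes with peaks elsewhere was not computed, so these shares have no background to be read against.

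At sites held by both proteins, scores moved differently near the cap than over all other peaks, which are pooled here and called elsewhere. Shared peaks in the rest of the 5'UTR were not taken apart. In the transcripts used for density, all peaks in the first 51 nt summed to scores of 1225, 1425 and 831. Those in the rest of the 5'UTR summed to 2645, 2409 and 1702, so ΔCTR was below FL in both stretches. Of the 77 FL cap-proximal peaks that ΔCTR shared, the ΔCTR score was lower by 2-fold or more at 21 (27.3%), beside 10.7% of all shared FL peaks, and higher by 2-fold or more at 11 (14.3%), beside 23.9%. Summed over the 77, the ΔCTR score was 0.783 of the FL score (0.717 to 0.854), while at all other shared peaks it was 1.26 (1.25 to 1.27). In the FL peaks with a score of 10 or more, ΔCTR had 0.592 of the FL score near the cap (0.533 to 0.657, 32 peaks) and 1.11 elsewhere (1.1 to 1.12, 1766 peaks). The ΔCTR score was below the FL score at 25 of those 32 peaks and above it at 6. Without PGK1 and CCDC85B, the peaks of highest FL score, the value was 0.627 (0.555 to 0.708).

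In ΔNTR the summed score went the other way over all shared peaks and in the highest score class, though not in between. Among 88 shared cap-proximal peaks its score was lower by 2-fold or more at 12 (13.6%), beside 20.8% of all shared peaks, and higher by 2-fold or more at 15 (17.0%), beside 15.2%. The summed ratio was 1.00 (0.924 to 1.08) near the cap and 0.808 (0.799 to 0.818) elsewhere, while the median of the single-peak ratios was 1 in both. For FL scores of 4 to 9 it was 1.12 (0.928 to 1.35) near the cap and 1.23 (1.20 to 1.26) elsewhere. For FL scores of 10 or more it was 0.896 (0.814 to 0.985) near the cap and 0.632 (0.623 to 0.641) elsewhere. The near-cap value leaned on PGK1, without which it was 0.769 (0.690 to 0.856). The median of the 28 single-peak ratios was 0.655, against 0.545 over the other peaks of that class. The ΔNTR score was below the FL score at 19 of the 28 near-cap peaks and above it at 8. Peaks taken for a high FL score tend to score lower in any second list, so in this class each near-cap value is to be read only against the value elsewhere.

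PGK1, the glycolytic kinase that makes ATP from bisphosphoglycerate, had the strongest site. Its score was 137 with FL, 222 without the NTR and 46 without the CTR. It also had low scores of 8 in ΔLa-module and 3 in ΔNTD, variants that per the paper failed to bind RNA in cells. The ΔNTR to FL ratio was 1.62 (1.30 to 2.02) and the ΔCTR to FL ratio 0.336 (0.235 to 0.472). The site was therefore higher than in FL without the NTR and lower without the CTR. The PGK1 input was 898 CPM in the FL line, 1217 in ΔNTR and 917 in ΔCTR. The FL peak, chrX:78104146-78104315, was 170 nt wide and ran on both sides of the canonical start. Its centre lay 18 nt upstream of the start, near the edge of the window. In ΔNTR the stretch was split into a peak of 203 centred 29 nt downstream of the start and one of 19 centred 83 nt upstream, and in ΔCTR into one of 43 at 9 nt downstream and one of 3 at 98 nt upstream. Over the whole PGK1 mRNA the scores were 1016, 619 and 877, so the share held by the peak centred in the window was 13.5%, 32.8% and 4.90%.

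FTH1, the heavy chain of the iron store ferritin, scored 66, 90 and 21. PFN1, the actin-binding profilin, scored 66, 59 and 11, and RPLP1, a stalk protein of the large ribosomal subunit, 45, 57 and 14. CTSL, a lysosomal protease, scored 44, 32 and 16. These 4 sites shared the order of PGK1 in that ΔCTR was lowest. The ΔCTR to FL ratio was 0.318 (0.185 to 0.527) at FTH1, 0.167 (0.0794 to 0.318) at PFN1, 0.311 (0.158 to 0.577) at RPLP1 and 0.364 (0.192 to 0.657) at CTSL. Their inputs in the FL and ΔCTR lines were 2927 and 2945 CPM for FTH1, 615 and 636 for PFN1, 422 and 432 for RPLP1, and 231 and 201 for CTSL. A site score sums all peaks of a list that overlap the site, and 11 of the 90 at FTH1 and 21 of the 57 at RPLP1 in ΔNTR came from a neighbouring peak centred beyond 50 nt.

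At some other strong sites the ΔCTR to FL interval included 1. LGALS1, the secreted lectin galectin-1, scored 52, 55 and 68, the glycolytic dehydrogenase GAPDH 35, 37 and 35, and RPLP2, the partner of RPLP1 in the ribosomal stalk, 24, 24 and 26. All 6 ratios of a deletion to FL at these sites had intervals that include 1. CNOT1, the scaffold of the CCR4-NOT deadenylase, scored 16, 26 and 25, and RPS20, a small-subunit ribosomal protein, 26, 36 and 18. RPS20 was thus lowest in ΔCTR, with a ratio to FL of 0.692 (0.358 to 1.31), and CNOT1 had a ratio of 1.56 (0.802 to 3.13). RPLP1 and RPLP2, both with long pyrimidine runs at their first bases, therefore differed in ΔCTR, with ratios of 0.311 and 1.08 (0.598 to 1.97).

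CCDC85B, a small coiled-coil protein gene, had the lowest ΔNTR to FL ratio among the shared sites that summed to at least 20. Its scores were 131, 34 and 88, so the ΔNTR to FL ratio was 0.260 (0.173 to 0.381) and the ΔCTR to FL ratio 0.672 (0.507 to 0.887). The peak was 18 or 19 nt wide and started at chr11:65890663 in all 3 lists, with its centre 1 or 2 nt upstream of the annotated start. The mRNA was scarce, at 45.4 CPM in the FL line and 57.0 in ΔNTR. This peak held 61.2% of the FL score of the whole mRNA.

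FOSL1, which encodes an AP-1 transcription factor, entered the highest sites through a neighbouring peak. A cap-proximal FL peak of score 3 overlapped a ΔCTR peak of score 83 whose centre lay 82 nt downstream of the start, outside the window. ΔNTR had a separate cap-proximal peak of score 7 at FOSL1. No FOSL1 peak centre of the ΔCTR list fell in the window.

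**Figure D3:**
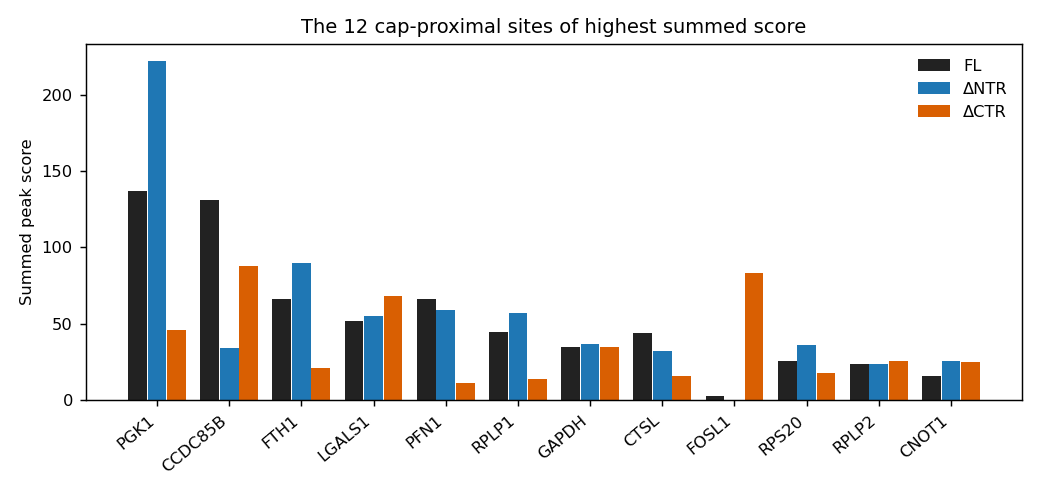
Summed peak score of the FL, ΔNTR and ΔCTR lists at the 12 cap-proximal sites with the highest score over the 3 lists, on a linear axis from 0. PGK1 reaches 222 in ΔNTR and 46 in ΔCTR. FTH1, PFN1, RPLP1 and CTSL are lowest in ΔCTR, CCDC85B is lowest in ΔNTR, and the ΔCTR bar at FOSL1 is a peak centred outside the window.

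Among sites with a peak in FL and in the deletion that summed to at least 20, the ΔCTR to FL interval lay below 1 at 11 of 33 and above 1 at 4. The 11 were PGK1, CCDC85B, FTH1, PFN1, RPLP1, CTSL, ENO1, LARP6, ROMO1, TGFBI and the mitochondrial MT-CO2. At ENO1 no FL peak was centred in the window, so its FL score came from outside it. The 4 were FOSL1, PKM, RPS25 and the mitochondrial MT-ND5. In ΔNTR the interval lay below 1 at 5 of 33 sites (CCDC85B, DPM1, GFPT1, MT-ND5 and MT-CO2) and above 1 at 3 (PGK1, PKM and POLDIP2). No count of this kind was made for peaks elsewhere. ENO1, TGFBI, DPM1 and GFPT1 were named after their values were seen. ROMO1, a mitochondrial inner membrane protein, scored 18, 11 and 4. PKM, pyruvate kinase, scored 10, 29 and 25, with ratios to FL of 2.90 (1.37 to 6.67) and 2.50 (1.16 to 5.83). RPS25, a small-subunit ribosomal protein, scored 9, 13 and 22. POLDIP2, a polymerase-interacting protein found in mitochondria and nucleus, scored 7, 18 and 3, where 15 of the 18 came from a peak centred 77 nt from the start. The histone gene H2AZ1 scored 6, 14 and 5, and the actin-sequestering TMSB4X 9, 15 and 12. At H2AZ1, 3 of the 6 in FL and all 5 in ΔCTR came from peaks centred 59 and 56 nt from the start. At the mitochondrial MT-ND5 and MT-CO2 the peaks of different lists overlapped only in part, and several had their centre beyond 50 nt.

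Sites found in a single list had low scores. EIF2S3, a subunit of the initiation factor that brings the first tRNA, had the highest, 16 in FL with no overlapping peak in ΔNTR or ΔCTR, and it carries a TOP start. FN1 (fibronectin), MAP2K2 (a kinase of the ERK pathway) and RAB2A (a membrane-traffic GTPase) followed at 8 each. In ΔNTR alone stood RPS6 at 15, the integrin ITGB1 at 11, the laminin chain LAMC1 at 8 and FOSL1 at 7. In ΔCTR alone stood RAB5C and UPF2 at 8 and HSPA5 and NANOS1 at 6. For a score of 8 in 1 list a score below the list minimum of 3 in the others would also have left no peak, so such sites do not show absence of binding.

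The collagen mRNAs carried cap-proximal peaks in all 3 lists. COL1A1 scored 16, 6 and 18, at centres 6, 10 and 7 nt from the start, and COL1A2 scored 14, 9 and 9 at 14, 10 and 9 nt. The annotated leaders are 118 and 137 nt long, and where the stem-loop lies in them was not examined. The ΔNTR to FL ratio at COL1A1 was 0.375 (0.120 to 1.01) and at COL1A2 0.643 (0.245 to 1.59), and both intervals include 1. These peaks were a small part of collagen binding, 3.54%, 1.61% and 2.44% of the score of the COL1A1 mRNA in FL, ΔNTR and ΔCTR and 5.00%, 3.57% and 2.31% of that of COL1A2. COL1A1 input was 733, 628 and 1000.3 CPM. Of the other collagens, COL6A1 had a peak in FL and COL6A3 in ΔNTR and ΔCTR, which makes 3 of 14 expressed collagen genes in FL and 3 of 13 in each deletion.

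LARP6 itself had cap-proximal peaks in its endogenous leader. The site at the start, centred 1 to 3 nt in, scored 11, 5 and 5, and the site at the end of its 69-nt 5'UTR scored 17, 12 and 4. At the second site the FL and ΔCTR peaks were centred 55 and 52 nt from the start, just outside the window, and only the ΔNTR peak lay inside. The ΔCTR to FL ratio was 0.235 (0.0576 to 0.721) there and 0.455 (0.124 to 1.42) at the first. None of the other 6 expressed members of the LARP family had a cap-proximal peak in any of the 3 lists.

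Cytosolic ribosomal protein mRNAs were the largest functional group. Of the expressed large-subunit genes, 14 of 45 had a cap-proximal peak in FL (31.1%), 17 of 44 in ΔNTR (38.6%) and 11 of 44 in ΔCTR (25%). Of 30 expressed small-subunit genes it was 8, 8 and 9. Over all expressed genes the shares were 2.47%, 2.68% and 1.82%. RPLP1, RPLP2, RPL23, RPL28, RPL30, RPL34 and RPL38 were hit in all 3 lists, as were RPS16, RPS20, RPS24 and RPS25. RPL23 scored 24, 17 and 14 with its centre 6 to 8 nt upstream of the annotated start, and RPS16 13, 4 and 3. Mitochondrial ribosomal proteins, made from nuclear genes that lack a TOP start as a class, had a cap-proximal peak at 3 of 66, 3 of 66 and 1 of 65 genes.

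The other gene groups were smaller. TOP mRNAs that do not encode ribosomal proteins were hit at 3, 3 and 4 of 18. Among them TPT1, a calcium-binding protein, scored 8, 10 and 3 at the site on its first bases and had a second ΔCTR peak of score 3 centred 38 nt in. RACK1, a ribosome-bound scaffold, was hit in all lists, NPM1 in FL alone, the poly(A)-binding protein PABPC1 in both deletions and the elongation factor EEF2 in ΔCTR alone. Glycolytic enzymes were hit at 5 of 15 in each list, and GAPDH, LDHA, PGK1 and PKM were in all 3. Actin, tubulin and myosin genes were hit at 7 of 24 in FL and ΔNTR and at 3 of 24 in ΔCTR (MYH9, PFN1 and TUBA1B). The iron-regulated ferritin mRNAs FTH1 and FTL were hit in all lists. Matrix glycoproteins and integrins gave 3, 5 and 2 of 18, collagen-modifying enzymes 1, 3 and 2 of 16, translation initiation factors 3, 3 and 2 of 29, respiratory chain subunits 4, 6 and 2 of 39, and chaperones 3, 5 and 4 of 23. For hnRNP proteins the counts were 3, 2 and 1 of 21, for SR splicing factors 2, 1 and 3 of 12, and for proteasome subunits 1 of 29, 4 of 28 and 1 of 28. With so few members the intervals of these shares overlap between the lists.

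Abundant mRNAs had a cap-proximal peak more often. In FL, 0.984% of genes at 10 to 100 CPM had one, 6.15% at 100 to 1000 CPM and 25% at 1000 CPM or more. In ΔNTR the shares were 0.911%, 6.97% and 38.5%, and in ΔCTR 0.596%, 4.52% and 31.8%. For this reason ribosomal protein genes, which are abundant, were also compared within a CPM class. CPM was not divided by transcript length, so genes of a class can still differ in their number of mRNA molecules.

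Transcripts with a cap-proximal peak started with a TOP motif more often than those without. A TOP start was called where the annotated first base is C and at least 4 C or T follow without a break, which holds for 4.59% of the 20033 canonical nuclear transcripts and for 60 of 79 ribosomal protein transcripts. Among expressed transcripts it held for 35 of 224 with an FL cap-proximal peak (15.6%, interval 11.5 to 21.0) and for 5.44% of 8638 without a cap-proximal peak in any list, a difference of 10.2 points (5.98 to 15.5). In ΔNTR it was 13.9% (8.45 points more, 4.64 to 13.4) and in ΔCTR 19.4% (13.9 points more, 8.57 to 20.6). Read the other way, RPLP1, RPLP2, RPS25 and RPS16 in the sequences above have runs of 6 to 13 pyrimidines, whereas PGK1, FTH1, LGALS1, PFN1, GAPDH and CTSL, all among the 12 highest sites, start with a purine.

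The difference was smaller when ribosomal protein genes were left out. Without them, 7.43% of FL, 5.45% of ΔNTR and 9.66% of ΔCTR transcripts with a peak had a TOP start, against 5.15%, 5.15% and 5.21% of those without. The differences were 2.27 points (-0.641 to 6.76), 0.303 points (-2.05 to 4.17) and 4.44 points (0.596 to 10.4). Only the ΔCTR interval stayed above 0, in a comparison not matched for abundance. Among genes of 100 to 1000 CPM, 20 of 67 ribosomal protein genes had an FL cap-proximal peak (29.9%, 20.2 to 41.7), compared with 10 of 137 other genes with a TOP start (7.30%, 4.01 to 12.9) and 112 of 2104 genes with neither (5.32%, 4.44 to 6.37). The ribosomal protein genes exceeded the last class by 24.5 points (14.9 to 36.4), and the other TOP starts by 1.98 points with an interval that includes 0 (-1.47 to 7.66). In ΔCTR the same 3 shares were 28.4%, 5.71% and 3.68%. There the other TOP starts exceeded the last class by 2.04 points, again with an interval that includes 0 (-0.893 to 7.24).

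**Figure D4:**
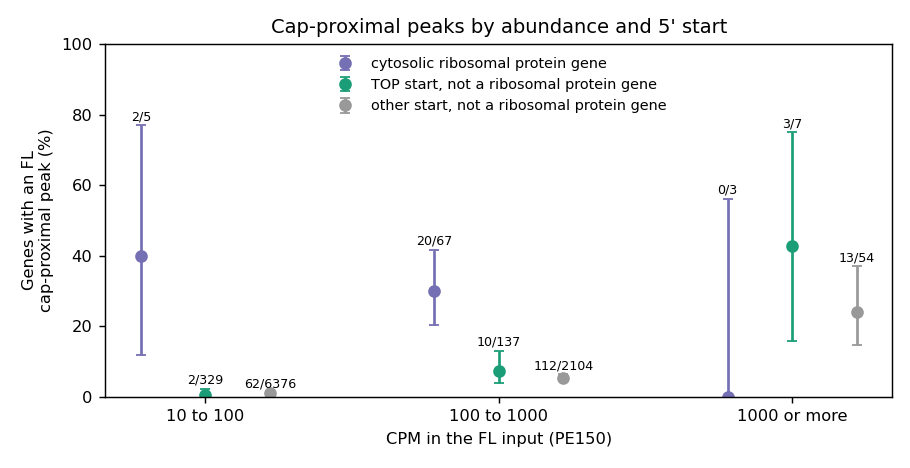
Share of genes with an FL cap-proximal peak by CPM class of the FL input, for cytosolic ribosomal protein genes, other genes with a TOP start and genes with neither. Points are shares, bars 95% Wilson intervals, and the numbers are genes with a peak over all genes of the class. At 100 to 1000 CPM the shares are 29.9%, 7.30% and 5.32%.

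Cap-proximal peaks on ribosomal protein mRNAs had a smaller median distance to the cap. Their median distance was 8 nt in FL (22 peaks), 11 nt in ΔNTR (26) and 7 nt in ΔCTR (22), and for all other nuclear genes it was 18, 20 and 21 nt. Their number did not fall in ΔCTR, with 22 in each of the FL and ΔCTR lists (ratio 1.00, interval 0.528 to 1.89), while peaks of all other nuclear genes went from 215 to 152 (0.707, 0.571 to 0.874). The interval of the first ratio contains the second, so the 2 ratios cannot be told apart. Their summed score was 220, 232 and 162.

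Base by base, the ribosomal protein mRNAs stood apart in pyrimidine content at the 5' end. The annotated first base was C or T in 82.7% of 75 expressed ribosomal protein transcripts, in 13.4% of 202 other transcripts with an FL cap-proximal peak and in 10.7% of 8599 other transcripts without one. At the fifth base after it the shares were 92.0%, 57.4% and 57.8%. In the base before the start all 3 groups had a pyrimidine in 87.6% to 94.7% of transcripts, the usual initiator pattern.

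Further properties of the leaders differed by small amounts. The median 5'UTR was 100 nt in transcripts with an FL cap-proximal peak and 140 nt in those without, and it was 89 nt for ΔNTR and 92 nt for ΔCTR. The median folding energy predicted for the first 51 nt was -14.3 kcal/mol with an FL peak (quartiles -18.5 to -11.2) and -16.1 kcal/mol without (-20 to -12.5). Within the peaks themselves C and T made up 55.9% ± 0.999 (SE over 237 FL peaks) of the bases. This was close to the 54.6% ± 0.818 in 5'UTR peaks outside the window and the 54.7% ± 0.166 in 3'UTR peaks. It was above the 50.0% ± 0.173 in coding-sequence peaks. Cap-proximal peaks were GC-rich, at 65.1% in FL, like the 66.2% of other 5'UTR peaks.

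The weight of the cap-proximal site within an mRNA varied widely. The score in the window exceeded that of any peak outside it in 97 FL genes (41.8%), 78 ΔNTR genes (31.1%) and 52 ΔCTR genes (29.9%). These counts include the genes without any peak outside the window. Such genes numbered 59 of 232 in FL (25.4%), 48 of 251 in ΔNTR (19.1%) and 32 of 174 in ΔCTR (18.4%). Over all genes with a cap-proximal peak, the median share of the mRNA score that lay in the window was 33.3%, 22.2% and 24.4%. The share of their pooled score was 15.0%, 12.1% and 9.28%. CTSL was an extreme case among the strong sites, with 81.5%, 72.7% and 51.6%.

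The input libraries give the level of these mRNAs in each line, with 1 library per line and no test. Against parental cells, none of 229 member mRNAs of FL was higher or lower by 2-fold or more in the FL line, beside 0.0434% of all tested genes higher and 0% lower. None of 171 members of ΔCTR changed by 2-fold, beside 0.0543% and 0%. In the ΔNTR line 3 of 250 were higher, beside 0.667% of all genes, and none lower, beside 0.0215%. The 3 were ADM, IGFBP3 and NDRG1, named after their values were seen, and each is known to be induced by hypoxia. ADM and NDRG1 were also higher by 2-fold or more in the ΔLa-module line, and NDRG1 in the ΔNTD line. IGFBP3 stood at 323 CPM in parental cells, 384 in the FL line and 677 in the ΔNTR line. Its site had no FL peak, a ΔNTR score of 3 and a ΔCTR score of 10, with no ΔCTR peak centre in the window. NDRG1 stood at 153, 236 and 496 CPM and ADM at 26.2, 35.4 and 65.2 CPM, and their sites had a ΔNTR peak alone, of score 3 and 4.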

How the data were processed

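iCLIP was deposited for 3 replicates each of 6 conditions and total RNA input as 12 libraries, 1 per line and protocol. Per the authors' methods, iCLIP reads were demultiplexed with Ultraplex, trimmed with Trim Galore, cleared of rRNA and tRNA with Bowtie2, aligned with STAR to GRCh38.p13 and deduplicated with UMI-tools, and Clippy called peaks in each replicate. The deposited score of a peak is the authors' sum over replicates after merging and removal of parental peaks with bedtools 2.30.0, and it is not scaled to depth. iCLIP depth per library is not given in the sources used here. The deposited gene count tables of the inputs hold raw STAR 2.7.10b counts of reads trimmed with Trim Galore 0.6.10, 25 to 28.7 M per library (paired 150-nt reads) and 6.18 to 10.3 M (single 50-nt reads), and were scaled here to CPM.

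Here, peak centres were placed against a later GENCODE release of the same build, so an annotated 5' end may differ from the one used in these cells. Peaks overlapped when they shared 1 nt on the same strand, and overlapping cap-proximal peaks were merged into sites. Shares carry Wilson, differences Newcombe, and ratios exact binomial intervals at 95%, with the score treated as a count. They cover counting error only, and no p-value was computed since the lists are pooled. Inputs were compared by a fold of 2 after adding 1 CPM. Multi-mapping reads of genes with processed pseudogenes (GAPDH, FTH1, ribosomal protein genes) may be missing. Named are the 12 highest sites, the 4 highest of each list alone, the 4 highest and 4 lowest ratios per deletion among sites summing to at least 20, and COL1A1, COL1A2, RPLP2, LARP6 and the leading members of gene lists. The members and lists were chosen with earlier results of these data known. Leaving out mitochondrial genes, ribosomal protein genes or PGK1, CCDC85B and FOSL1, centres inside the window in both lists, and the score limit on positions were added after seeing the data. Scripts used Python 3.11.15, numpy 2.4.6, pandas 2.3.3, scipy 1.17.1, pysam 0.24.0 and RNAfold 2.7.2, and were tested on simulated data.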

Additional observations from a re-analysis of the deposited data

Results flagged for a closer look

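The ΔLa-module list, which entered none of the comparisons, held 6 cap-proximal peaks among its 636 peaks, above the 3 that a count of 0 allows. They lay on PGK1 with a score of 4 and on AKR1B1, MT-ND5, TMSB10, TOR1AIP2 and VCL with a score of 3 each. Their share of the list, 0.943% (Wilson interval 0.433 to 2.04), has an interval that includes the 1.69% of FL. The ΔNTD list held 3 of 291, on MT2A, FTH1 and PGK1.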

How the results depend on the processing

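Across 77 results and 137 values under an alternative, 87 stayed within the limits of the reported value and 50 moved. None whose reported interval excluded no difference changed direction. Of those whose interval included it, the ΔNTR overlap near the cap minus elsewhere went from 1.1 to -0.680 points with a score above 3. With a score above 3, the FL, ΔNTR and ΔCTR lists held 124, 135 and 83 cap-proximal peaks. A window to 100 nt downstream gave 393, 426 and 280, and the 5' ends of any protein-coding transcript 494, 515 and 387. The density ratio to the rest of the 5'UTR was 2.02 in FL and 1.78 in ΔNTR with a score above 3, and 1.39 in ΔCTR when the stretch at the cap was lengthened by 50 nt. With a stricter rule, a shared 50% of both peaks, ΔNTR overlapped 28.5% and ΔCTR 22.3% of FL cap-proximal peaks. With a score above 3 the ΔNTR overlap was 45.2%, and the ΔCTR overlap was lower near the cap than elsewhere by -14.0 points in place of -6.21. The summed ΔNTR to FL score ratio over shared sites, 0.978, was 0.904 without PGK1 1.00 with centres inside the window in both lists and 1.08 after division by list totals. For ΔCTR, 0.762 became 0.659 after that division and 0.678 with centres inside the window in both lists. Without ribosomal protein genes the TOP difference was 2.27, 0.303 and 4.44 points. The large-subunit count fell to 10 in ΔNTR and 5 in ΔCTR with a score above 3, under which 25 of 51 gene-list counts moved and 0 rose. In the single 50-nt inputs 1 member was 2-fold higher in FL and 1 in ΔNTR, out of 10 and 14 tested. No paired analysis was possible because replicates had been merged in the peak lists and every line had a single input library per protocol, which also kept any replicate from being dropped. The unknown iCLIP depth limits every comparison of counts and scores between lists.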
